A study of Mus musculus with 18 samples.

Results

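The transcripts of 10 genes of the contractile actin cytoskeleton and of the sites where it is anchored to the matrix were followed in mouse embryonic stem (ES) cells in 3D culture. They are Myl9, Tpm1, Tpm2, Tpm4 and Tagln2, whose products lie along actin filaments or on myosin, Flna, Flnc and Actn3, which crosslink filaments, and Bcar1 and Capn2, which act at focal adhesions. All 10 were found by symbol among the 49671 gene identifiers of the count table. They had been chosen as genes that change across these same 6 groups of samples, so their levels and fold changes are given as a description. No p-value is printed for any of them. Where they pass or miss the thresholds used for all genes, this too is description and not a test.

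RNA sequencing of poly(A) RNA was available for 18 samples, 3 in each group. Wild-type E14 ES cells, an established line maintained in 2i and Lif, were embedded at passage 20 in growth factor depleted Matrigel and cultured for 48 h in N2B27 medium with DMSO as solvent control, with CH (CHIR99021 at 3 µM, a Gsk3 inhibitor that activates Wnt/β-catenin signalling), with 2i (3 µM CHIR99021 plus 0.4 µM of PD0325901, which inhibits Mek) or with Fgf2/Activin (labelled FGF2_Activin, 12 ng/ml Fgf2 plus 20 ng/ml Activin A). Esrrb fl/fl ES cells of passage 25, which carry a tamoxifen-inducible Cre (MerCreMer), were cultured for 24 h, all in 3 µM CH. The Esrrb null group (Esrrb_4OHT) had received 4-hydroxytamoxifen for 1 day before 3D culture, whereas the Esrrb floxed group (Esrrb_NT) had not, so no floxed culture received 4-hydroxytamoxifen alone. Each genotype rests on 1 cell line, and cell line, passage, culture time and depth all differ between the E14 and the Esrrb fl/fl cultures, so differences between these lines cannot be told apart from any of them.

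Non-muscle myosin II pulls on actin filaments once its regulatory light chain, of which Myl9 encodes one form, is phosphorylated. Tropomyosins wrap around the filament and set which myosins and other proteins may bind it, and transgelins and calponins also bind along it. Filamins and α-actinins join filaments into networks and bundles, and tie them to integrins at focal adhesions. There, the docking protein p130Cas (Bcar1) is phosphorylated by Src-family kinases when stretched, and calpain 2 (Capn2) is a calcium-activated protease that cleaves adhesion proteins such as talin. Many contractile genes are targets of the transcription factor Srf, whose cofactors of the Mrtf family respond to actin polymerisation, and others are bound by Tead factors with Yap. Early epiblast cells undergo epithelialization on matrix, with actomyosin gathered at the apical side.

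In the wild-type cultures, all 10 genes had a lower mean in CH than in DMSO and in 2i compared with Fgf2/Activin. In the Esrrb fl/fl cells, which were all in CH, all 10 were higher in every Esrrb null sample than in every Esrrb floxed sample. Of all genes tested there, 65.8% did not overlap between the groups in either direction, and the 10 had been picked as genes that change. Myl9, Flnc and Capn2 had the largest differences in each of these comparisons except that between 2i and Fgf2/Activin, where Tpm2 lay close to Flnc and above Capn2. Tpm4 differed least between CH and DMSO, and Tagln2 least between Esrrb null and floxed cells. Fewer cells that express a gene and less of its RNA per cell cannot be told apart in bulk samples.

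**Figure D1:**
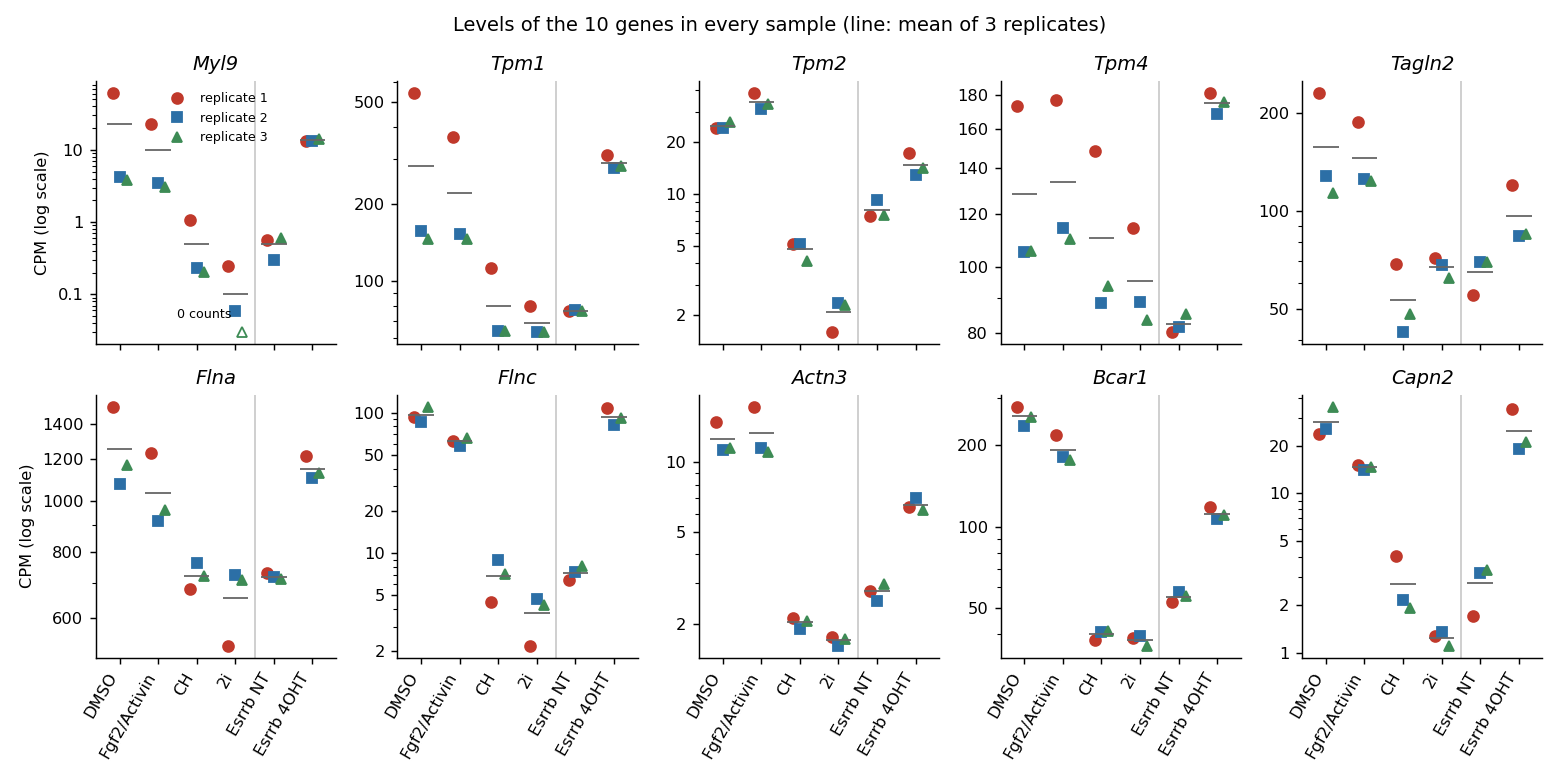
CPM of each gene (log scale, each panel with its own axis) in the 18 samples, with replicates 1, 2 and 3 as circles, squares and triangles and the mean of each group as a line. The grey vertical line separates the E14 cultures from the Esrrb fl/fl cultures; the open triangle in the Myl9 panel marks 2i replicate 3, which had 0 counts. In the Myl9 panel, replicate 1 of DMSO (61.2 CPM) stands far above replicates 2 and 3 (4.24 and 3.79 CPM).

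The promoters are shown because the 10 genes differed in the same direction in these comparisons. RefSeq's table for GRCm38.p6, which gives 250 bases before to 50 bases after each start, held 11 promoters of 9 of the 10 genes; Actn3 was not matched. The CArG box, the site of Srf, was searched on both strands together with CATTCC (the core of the Tead site), AAGGTCA (the core of the Esrrb site) and CTTTGAT and CTTTGTT (Tcf/Lef sites). None of these motifs contains another. They were chosen after the promoters had been read, so a match is a description and not evidence of binding. The CArG box was found in 1 of the 11 promoters, that of Myl9, and in 1.63% of all 32851 promoters. The window before the first annotated exon of Myl9 (chr2:156775214-156775419, plus strand, 206 bases) is shown with the CArG box in capitals, since Myl9 is the gene whose level varied most.

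Myl9: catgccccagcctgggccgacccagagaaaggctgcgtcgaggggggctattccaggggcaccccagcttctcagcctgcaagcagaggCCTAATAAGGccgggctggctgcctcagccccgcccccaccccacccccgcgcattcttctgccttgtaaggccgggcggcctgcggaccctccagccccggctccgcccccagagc

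CATTCC was found in 5 of the 11 promoters and in 14.7% of all promoters. These 5 belong to 4 of the 9 genes, Tagln2, Flnc, Tpm1 and Flna, since overlapping windows of Flnc hold the same match. To compare them, 30 bases around each match are given on the gene's strand, with the match in capitals; in Tpm1 it lies on the opposite strand and reads GGAATG. Those of Tagln2 (chr1:172500116-172500145 and chr1:172500154-172500183, plus strand) and of Tpm1 (chr9:67049252-67049281, minus strand) lie before the RefSeq start but inside an exon of a longer GENCODE transcript. Those of Flnc (chr6:29433140-29433169, plus strand) and Flna (chrX:74246663-74246692, minus strand) lie in no GENCODE exon of their gene.

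Tagln2, first: tcctttacggctCATTCCtgcctactgacc
Tagln2, second: taagcgctccagCATTCCacgcggcggcgc
Flnc: cgggccgggcggCATTCCtgggaggccggc
Tpm1: tggctgtcctaaGGAATGcggtcgcccccc
Flna: ggcgttgtggggCATTCCaacgggaggggc

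The core AAGGTCA, which 4.72% of all promoters hold, was in none of these 11 windows. Neither was CTTTGAT, held by 3.73% of all promoters, nor the other Tcf/Lef site, held by 5.85%. This says only that the letters are not within these 300 bases.

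Myl9 (ENSMUSG00000067818, chromosome 2, 156775420 to 156781658, plus strand) had the widest range of the 10 genes. Levels are given as CPM (counts scaled to a common library size) after scaling of the library sizes by edgeR's TMM method, and in the order of replicates 1, 2 and 3. Myl9 had 61.2, 4.24 and 3.79 CPM in DMSO, which are 2282, 136 and 99 counts. In CH it had 1.07, 0.231 and 0.203 CPM, from 31, 7 and 5 counts. The groups did not overlap, but most of the DMSO mean came from replicate 1. In Fgf2/Activin Myl9 had 23.0, 3.53 and 3.09 CPM, and in 2i 0.247 and 0.0597 CPM in replicates 1 and 2 and 0 counts in replicate 3. Here too the groups were apart and replicate 1 was the highest of each. In the Esrrb floxed cells Myl9 had 0.568, 0.302 and 0.609 CPM, at the level of CH in E14 cells. In the Esrrb null cells it had 13.2, 13.1 and 14.2 CPM, with no sign of a higher replicate 1.

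The log2 fold change of Myl9 was -5.51 (standard error, SE, 1.39) in CH against DMSO. It was -6.63 (SE 1.66) in 2i against Fgf2/Activin and 4.74 (SE 0.20) in Esrrb null against floxed cells. Between same-numbered CH and DMSO samples the log2 difference was -5.75 for replicate 1, -3.83 for replicate 2 and -3.80 for replicate 3. Thus each numbered pair went the same way, and the pair of replicate 1 by the most. Without DMSO replicate 1 the fitted value was -3.00, and without Fgf2/Activin replicate 1 the second comparison gave -5.03. Between Fgf2/Activin and DMSO (-1.22, SE 1.08) and between 2i and CH (-2.34, SE 1.99) the ranges of Myl9 overlapped, the latter on at most 31 counts per sample. With the replicate number as a block, Myl9 had -5.20 (SE 0.35) in CH against DMSO and -6.72 (SE 0.45) in 2i against Fgf2/Activin. Both were past the thresholds.

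Tropomyosins make up the largest group among the 10 genes. Tpm1 (ENSMUSG00000032366, chromosome 9, 67022590 to 67049406, minus strand) gives rise to many isoforms by alternative promoters and exons, which counts per gene cannot tell apart. It had 542, 157 and 146 CPM in DMSO, 113, 63.7 and 63.8 in CH, 366, 152 and 146 in Fgf2/Activin and 79.8, 63.2 and 63.3 in 2i. All samples of DMSO and Fgf2/Activin lay above all samples of CH and 2i, and replicate 1 was the highest in each condition. In Esrrb floxed cells Tpm1 had 76.8, 76.9 and 76.2 CPM, and in Esrrb null cells 310, 277 and 282 CPM. The Esrrb null samples lay above DMSO replicates 2 and 3, and the replicates of the Esrrb fl/fl cells lay close together. The log2 fold changes were -1.83 (SE 0.52) in CH against DMSO, -1.70 (SE 0.52) in 2i against Fgf2/Activin and 1.90 (SE 0.06) in Esrrb null against floxed cells.

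Tpm2 (ENSMUSG00000028464, chromosome 4, 43514711 to 43523765, minus strand), which encodes β-tropomyosin, had 24.3, 24.2 and 26.3 CPM in DMSO and 5.13, 5.17 and 4.10 CPM in CH. It had 38.5, 31.1 and 33.2 CPM in Fgf2/Activin, above all DMSO samples, and 1.59, 2.36 and 2.27 CPM in 2i, below all CH samples. Its replicates were close, and no neighbouring groups in the order of its means overlapped: Fgf2/Activin was the highest, followed by DMSO, Esrrb null, Esrrb floxed, CH and 2i. In Esrrb floxed cells Tpm2 had 7.48, 9.22 and 7.61 CPM and in Esrrb null cells 17.3, 12.9 and 14.2 CPM. This log2 fold change of 0.85 (SE 0.14) was small beside those of -2.39 (SE 0.16) in CH against DMSO and -4.05 (SE 0.18) in 2i against Fgf2/Activin. Tpm2 was also the 1 gene of the 10 past the thresholds between 2i and CH (-1.21, SE 0.17).

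Tpm4 (ENSMUSG00000031799, chromosome 8, 72134975 to 72153142, plus strand), which encodes short non-muscle tropomyosins, had 173, 105 and 106 CPM in DMSO and 149, 88.7 and 93.7 in CH. These groups overlapped, with a log2 fold change of -0.23 (SE 0.26). It had 177, 114 and 110 CPM in Fgf2/Activin and 114, 88.9 and 83.7 in 2i, which overlapped as well (-0.49, SE 0.27). The Esrrb floxed cells had 80.2, 81.5 and 85.3 CPM and the Esrrb null cells 181, 169 and 176 CPM, a log2 fold change of 1.07 (SE 0.05). Tpm4 was therefore apart in the Esrrb comparison and overlapped in those of the culture conditions, although within each replicate number it was lower in CH than in DMSO and in 2i than in Fgf2/Activin. With the replicate number as a block these log2 fold changes were -0.23 (SE 0.07) and -0.46 (SE 0.07), under the fold threshold. Reads of Tpm4 may be shared with Gm7809, which matches 34.8% of its longest transcript, and 6.08% of its exon length overlaps the antisense gene Gm26586.

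Tagln2 (ENSMUSG00000026547, chromosome 1, 172500047 to 172507380, plus strand) encodes transgelin-2, an actin-binding protein outside muscle. It had 231, 128 and 114 CPM in DMSO, 68.8, 42.3 and 48.1 in CH, 188, 126 and 124 in Fgf2/Activin and 71.7, 68.2 and 62.2 in 2i. DMSO and Fgf2/Activin lay above CH and 2i in all samples. Esrrb floxed cells had 55.2, 69.7 and 69.5 CPM and Esrrb null cells 120, 83.7 and 85.1 CPM, groups that were apart by a smaller margin. The log2 fold changes were -1.59 (SE 0.28), -1.12 (SE 0.27) and 0.56 (SE 0.15) in CH against DMSO, 2i against Fgf2/Activin and Esrrb null against floxed cells. Without Fgf2/Activin replicate 1 the second of these was -0.88, under the fold threshold.

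Flna (ENSMUSG00000031328, chromosome X, 74223461 to 74249820, minus strand) encodes filamin A, the main filamin outside muscle, and was the most counted of the 10 genes. It had 1508, 1074 and 1169.5 CPM in DMSO and 682, 762 and 721 in CH. In Fgf2/Activin it had 1229.7, 916 and 962 CPM and in 2i 532, 723 and 708 CPM. The 6 samples of DMSO and Fgf2/Activin lay above the 6 of CH and 2i, with differences under the fold threshold: -0.81 (SE 0.16) and -0.67 (SE 0.16) on the log2 scale. In Esrrb floxed cells Flna had 730.1, 717 and 711 CPM and in Esrrb null cells 1218, 1103 and 1128 CPM, a log2 fold change of 0.66 (SE 0.05).

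Flnc (ENSMUSG00000068699, chromosome 6, 29433256 to 29461883, plus strand) encodes filamin C, best known from striated muscle. It had 92.7, 86.1 and 111 CPM in DMSO and 4.51, 8.99 and 7.14 CPM in CH. In Fgf2/Activin it had 62.4, 58.3 and 66.3 CPM, all below DMSO, and in 2i 2.19, 4.75 and 4.25 CPM. Unlike Myl9, Flnc was not highest in replicate 1 of any E14 condition, and it was lowest there in CH and 2i. The Esrrb floxed cells had 6.40, 7.30 and 8.11 CPM, and the Esrrb null cells 108, 81.4 and 91.1 CPM, a range that overlapped that of DMSO. The log2 fold changes were -3.83 (SE 0.28) in CH against DMSO, -4.06 (SE 0.29) in 2i against Fgf2/Activin and 3.67 (SE 0.13) in Esrrb null against floxed cells.

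Actn3 (ENSMUSG00000006457, chromosome 19, 4861216 to 4877909, minus strand) encodes the α-actinin of fast skeletal muscle fibres and was low throughout. It had 14.9, 11.3 and 11.5 CPM in DMSO, 2.14, 1.91 and 2.07 in CH, 17.4, 11.5 and 11.1 in Fgf2/Activin and 1.76, 1.61 and 1.73 in 2i. The replicates of CH and 2i were close, from 50 to 62 counts per sample. For Actn3, Esrrb floxed cells had 2.79, 2.52 and 2.99 CPM and the Esrrb null cells 6.38, 6.97 and 6.21 CPM, above all floxed samples and below all DMSO samples. The log2 fold changes were -2.64 (SE 0.21), -2.97 (SE 0.21) and 1.22 (SE 0.14) in the same order of comparisons as above.

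Bcar1 (ENSMUSG00000031955, chromosome 8, 111710474 to 111743809, minus strand) had the smallest SE of the 10 genes in the wild-type comparisons. It had 278, 236 and 253 CPM in DMSO, 38.1, 40.9 and 41.3 in CH, 218, 182 and 176 in Fgf2/Activin and 38.7, 39.3 and 36.3 in 2i. DMSO lay above Fgf2/Activin in all samples, and CH and 2i overlapped. For Bcar1, Esrrb floxed cells had 52.8, 57.3 and 55.5 CPM and the Esrrb null cells 118, 106 and 110 CPM, so the null cells stayed below both DMSO and Fgf2/Activin. The log2 fold changes were -2.69 (SE 0.10) in CH against DMSO and -2.34 (SE 0.10) in 2i against Fgf2/Activin. Between Esrrb null and floxed cells the value was 0.999 (SE 0.06), just under the fold threshold of 1.

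Capn2 (ENSMUSG00000026509, chromosome 1, 182467260 to 182517608, minus strand) had 23.7, 25.4 and 35.2 CPM in DMSO and 4.03, 2.14 and 1.91 CPM in CH. It had 15.1, 14.1 and 14.7 CPM in Fgf2/Activin, all below DMSO, and 1.27, 1.34 and 1.10 CPM in 2i, all below CH. Capn2 thus was lower in 2i than in CH in all samples (-1.12, SE 0.28), a difference that did not pass the thresholds. In Esrrb floxed cells it had 1.70, 3.17 and 3.30 CPM and in Esrrb null cells 34.0, 18.9 and 20.95 CPM, with replicate 1 the lowest of the former and the highest of the latter. The log2 fold changes were -3.40 (SE 0.27) in CH against DMSO, -3.56 (SE 0.28) in 2i against Fgf2/Activin and 3.16 (SE 0.29) in Esrrb null against floxed cells. The antisense gene Gm37885 overlaps 27.1% of the exon length of Capn2, and counting without strand cannot separate their reads.

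**Figure D2:**
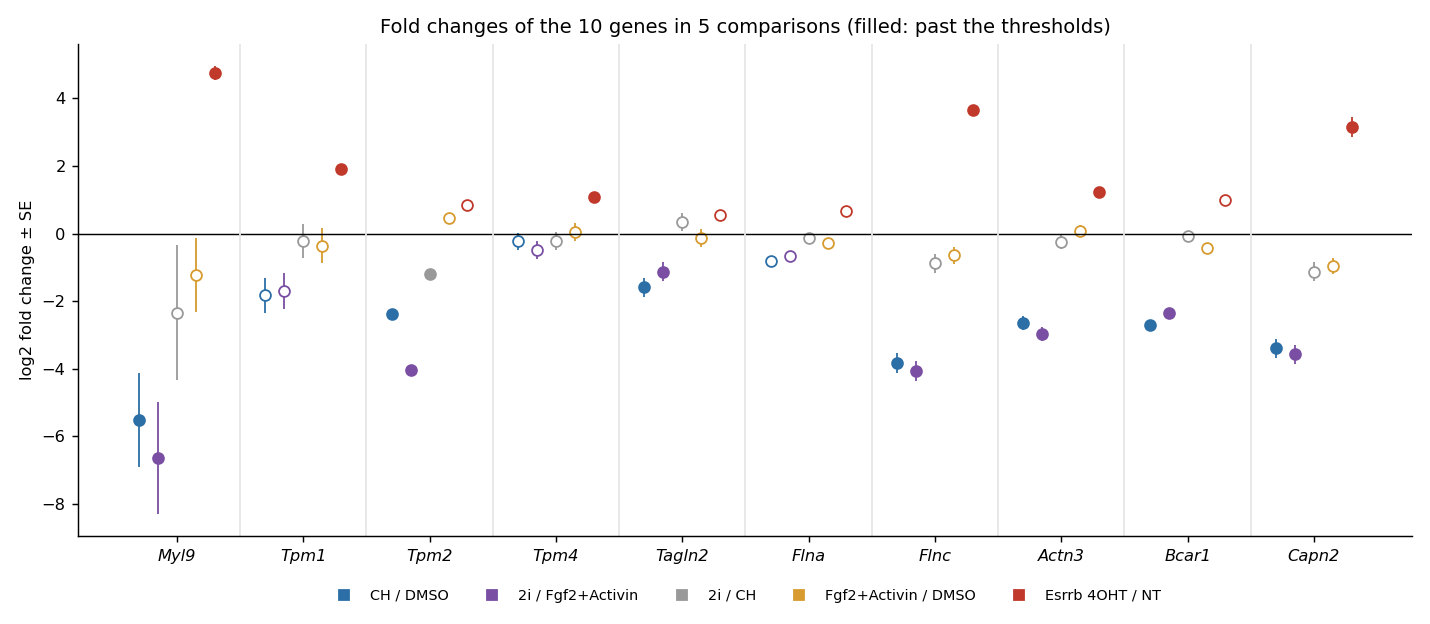
Log2 fold change of each gene with its SE in the 5 comparisons (3 samples per group), with filled circles for values past the thresholds of an adjusted p under 0.01 and a log2 fold change above 1 in size. The values for CH against DMSO and 2i against Fgf2/Activin lie below 0 for all 10 genes, from -0.23 for Tpm4 to -6.63 for Myl9, and those for Esrrb null against floxed cells lie above 0, from 0.56 for Tagln2 to 4.74 for Myl9.

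A gene was called when edgeR's quasi-likelihood test gave a Benjamini-Hochberg adjusted p-value under 0.01 over all genes tested and the log2 fold change was above 1 in size. All 10 genes passed the filter on low counts. In CH against DMSO 7 of the 10 were called lower, where 10.2% of the 16413 genes tested were called lower and 7.51% higher. The exceptions were Tpm1, Tpm4 and Flna. In 2i against Fgf2/Activin the same 7 genes were called lower, against 14.4% of all genes lower and 9.13% higher. In Esrrb null against floxed cells 6 were called higher, Myl9, Tpm1, Tpm4, Flnc, Actn3 and Capn2, against 12.8% of the 14893 genes tested higher and 3.87% lower. Since the 10 genes had been picked from these contrasts, nothing is read from these shares. The groups did not overlap for 9, 9 and 10 of the 10 genes in these 3 comparisons, against 49.7%, 62.9% and 65.8% of all genes. Their median log2 fold changes were -2.51, -2.66 and 1.15, where the medians over all genes lay between -0.0022 and 0.0021.

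Between 2i and CH, which differ by the Mek inhibitor, 1 of the 10 genes was called lower (Tpm2), where 1.67% of all genes were called lower and 0.317% higher. The median log2 fold change of the 10 was -0.24, and 3 did not overlap (Tpm2, Actn3 and Capn2), against 25.8% of all genes. Between Fgf2/Activin and DMSO none of the 10 was called by edgeR or by DESeq2. In edgeR 4 had an unadjusted p under 0.05, as did 2770 of the 16413 genes tested. The 10 genes were picked on these samples, so nothing is read from that count. Here 0.902% of all genes were called higher and 0.347% lower. The 4 genes whose groups did not overlap, against 24.1% of all genes, were Tpm2, higher in Fgf2/Activin by 0.45 (SE 0.15), and Flnc, Bcar1 and Capn2, lower by -0.64 (SE 0.25), -0.43 (SE 0.09) and -0.95 (SE 0.24) on the log2 scale. These comparisons share samples with those above and are not independent of them.

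The replicate numbers recur in every group, and same-numbered samples deviated together, so a second fit of each comparison took the replicate number as a block. There, Tpm1 was called lower in CH than in DMSO (-1.65, SE 0.24) and also in 2i against Fgf2/Activin (-1.53, SE 0.24), so that 8 of the 10 genes were called in each. The shares of all genes given above are those of the fit without a block, so nothing is read from this count. Tpm1 was also called without replicate 1 of all 4 conditions, with log2 fold changes of -1.26 and -1.23. The call of Myl9 in CH against DMSO was lost without DMSO replicate 1, without any 1 CH replicate and in a fit of only the 6 samples compared. In 2i against Fgf2/Activin, the calls of Myl9 and Tagln2 were lost without Fgf2/Activin replicate 1 or any 1 of the 2i replicates, and that of Tagln2 also without replicate 1 of all conditions (-0.93).

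Replicate 1 of the E14 cultures differed from replicates 2 and 3 in Myl9 by more than in any of the other 9 genes. Relative to the mean of replicates 2 and 3, Myl9 in replicate 1 was 15.2-fold in DMSO, 6.95-fold in Fgf2/Activin, 4.93-fold in CH and 8.27-fold in 2i, where counts were at most 7. In the Esrrb fl/fl cells the ratio was 0.966 in null and 1.25 in floxed cells. Tpm1 had ratios of 3.58, 2.45, 1.77 and 1.26 in DMSO, Fgf2/Activin, CH and 2i, the next highest in DMSO and Fgf2/Activin. In CH Capn2 was above it (1.99), and in 2i Tpm4 was. In the same order, Tpm4 had 1.64, 1.58, 1.63 and 1.32 and Tagln2 1.91, 1.51, 1.52 and 1.10. Replicate 1 was the highest sample in all 4 conditions for 5 of the 10 genes (Myl9, Tpm1, Tpm4, Tagln2 and Actn3), against 24.9% of the 10478 genes with a mean of at least 5 CPM. In single E14 conditions, replicate 1 was the highest sample for 42.9% to 47.9% of those genes. Of the list genes that reached this level, replicate 1 was the highest in all 4 conditions for 12 of 20 in the actin and myosin list, 4 of 22 crosslinkers, 9 of 31 focal adhesion genes, 3 of 7 of the calpain system and 1 of 4 of the Srf axis. The muscle and cardiac actins Acta1 and Actc1, named here after their values were seen, were also far higher in replicate 1 of DMSO and Fgf2/Activin, but not of 2i, where their ratios were 0.743 and 0.330. In CH the ratios were 1.17 and 2.67, the latter on at most 6 counts. Acta1 had 87.8, 2.00 and 1.95 CPM in DMSO and 9.07, 1.60 and 2.18 CPM in Fgf2/Activin, and Actc1 had 6.06, 0.312 and 0.422 CPM in DMSO.

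**Figure D3:**
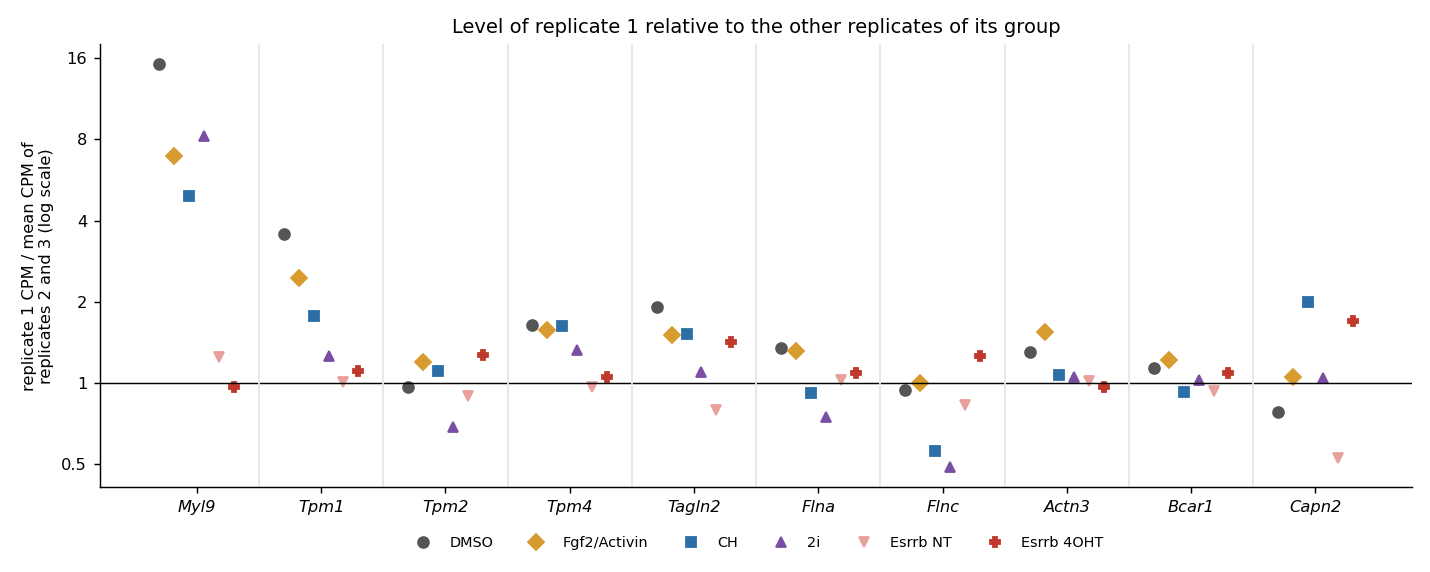
CPM of replicate 1 divided by the mean CPM of replicates 2 and 3 (log scale) for each gene in the 6 groups, with a line at 1. Myl9 stands at 15.2 in DMSO and above 4 in all 4 E14 conditions, and near 1 in the Esrrb fl/fl cells.

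Other measures also differed in replicate 1. Esrrb had 30.3, 8.95 and 6.82 CPM in DMSO and 21.4, 11.6 and 9.31 CPM in Fgf2/Activin. The summed level of 8 fibroblast markers was 55.3, 22.3 and 24.3 CPM in DMSO and 32.8, 18.8 and 21.6 CPM in Fgf2/Activin, although Col1a1, Col3a1 and Lum were under 1 CPM in every sample. The summed level of 10 muscle markers was 40.8, 32.8 and 32.5 CPM in DMSO and 30.8, 29.1 and 29.7 CPM in Fgf2/Activin, with Myod1, Myog, Ckm and Tnnt2 under 1 CPM in every sample. In DMSO, primitive endoderm markers summed to 201, 126 and 134 CPM and trophectoderm markers to 32.8, 15.1 and 11.2 CPM. The mesendoderm sum was lowest in replicate 1 of DMSO, with 9.01, 14.04 and 14.1 CPM, and the ES cell sums were close, with 1428, 1448 and 1438 CPM. The part of these in the Myl9 values was not tested, and library preparation or culture of replicate 1 is described no further in the labels.

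Across the comparisons as well, marker sums moved beside the 10 genes. The fibroblast sum was 8.20 to 14.5 CPM in CH and 5.19 to 5.53 CPM in 2i, and 13.0 to 17.1 CPM in Esrrb null against 18.6 to 27.1 CPM in floxed cells, opposite to the direction of Myl9. The muscle sum was 16.8 to 31.7 CPM in CH, 13.98 to 16.4 in 2i, 15.7 to 22.3 in Esrrb null and 9.55 to 12.4 in floxed cells. Mesendoderm markers summed to 9.01 to 14.1 CPM in DMSO and 448 to 679 CPM in CH, and to 332 to 486 CPM in Esrrb null against 51.4 to 74.6 CPM in floxed cells. Primitive endoderm markers summed to 425 to 617 CPM in Esrrb null and 274 to 310 CPM in floxed cells, with Gata6 and Sox17 under 1 CPM in every sample. Trophectoderm markers summed to 11.2 to 32.8 CPM in DMSO and 71.3 to 120.2 CPM in CH. The sum of the 5 ES cell markers moved opposite to the 10 genes without overlap. It was 1428 to 1448 CPM in DMSO and 1846 to 2356 in CH, and 1572 to 1616 in Fgf2/Activin and 2507 to 2653 in 2i. In Esrrb null cells it was 1228 to 1303 CPM and in floxed cells 2040 to 2196 CPM. The part of these marker sums in the levels of the 10 genes was not tested. In the deletion check, Esrrb had 1211, 1333 and 1250 counts in the null and 2680, 2146 and 2109 counts in the floxed samples; these are counts over the whole gene.

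Levels of different genes were compared per kilobase of exon (RPKM, the CPM divided by the gene's exon length in kilobases). This length joins all annotated exons: 6485 bases in Tpm1, 6345 in Capn2 and 2203 in Tpm4. Their longest transcripts have 2890, 3225 and 2128 bases. Tpm1 and Capn2 may thus be understated beside genes such as Tpm4, and shares within a family are approximate. Among the tropomyosins, Tpm1 held 24.3% of the summed RPKM in DMSO and 9.08% in CH, and Tpm2 5.53% and 1.23%. Tpm3, which is not among the 10 genes, held 34.7% in DMSO and 52.8% in CH. Its ranges of 21.6% to 42.2% and 40.4% to 59.3% overlapped. Tpm3 itself had 323 ± 34.3 CPM in DMSO and 427 ± 60.6 CPM in CH (SD, n = 3 each), and its log2 fold change of 0.38 was not called (adjusted p = 0.0168, edgeR). In Esrrb floxed cells Tpm1 held 9.59% and Tpm3 57.8%, and in Esrrb null cells 22.6% and 34.6%. Thus the shares of Tpm1 and Tpm3 in floxed cells were near those in CH. Esrrb null samples had a Tpm1 share of 22.2% to 23.2%, within the DMSO range of 16.3% to 38.4%, but the top of that range was replicate 1. Tpm4 held 39.9% to 40.8% in null samples, above its 34.9% to 36.2% in DMSO. Tpm2 held 2.32% to 2.88% in null samples, below its 3.84% to 6.57% in DMSO.

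On the same per-length scale, Flna was far above Flnc in every group. The mean RPKM of Flna was 133 in DMSO, 76.8 in CH, 122 in Esrrb null and 76.5 in floxed cells. That of Flnc was 10.3, 0.732, 9.95 and 0.774 in the same order. Among the α-actinins, Actn3 never held more than 3.36% of the RPKM in a group mean, and the non-muscle forms Actn1 and Actn4 held the rest apart from a small share of Actn2.

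Myl9 was likewise a small part of the regulatory light chains in most samples. It held 29.4% of the summed RPKM of Myl9, Myl12a and Myl12b in DMSO replicate 1, but as little as 2.93% in the other DMSO samples. In CH it held 0.396% on average, in Esrrb floxed cells 0.537%, and in Esrrb null cells 10.2%. The ubiquitous forms Myl12a and Myl12b had log2 fold changes of -0.05 (adjusted p = 0.703) and -0.31 (adjusted p = 0.0207) in CH against DMSO by edgeR's quasi-likelihood test and were not called. Tagln2 held between 89.1% and 98.9% of the transgelin RPKM in the group means, with the lowest share in CH, where Tagln3 held 10.5%. Bcar1 held between 64.7% and 79.2% of the RPKM of the Cas family. Capn2 held 7.79% of the calpain RPKM in DMSO, 0.893% in CH and 9.46% in Esrrb null cells, whereas Capn1, the other classical calpain, had a log2 fold change of 0.11 in CH against DMSO and -0.11 in Esrrb null against floxed cells (adjusted p = 0.31 and 0.452, edgeR).

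**Figure D4:**
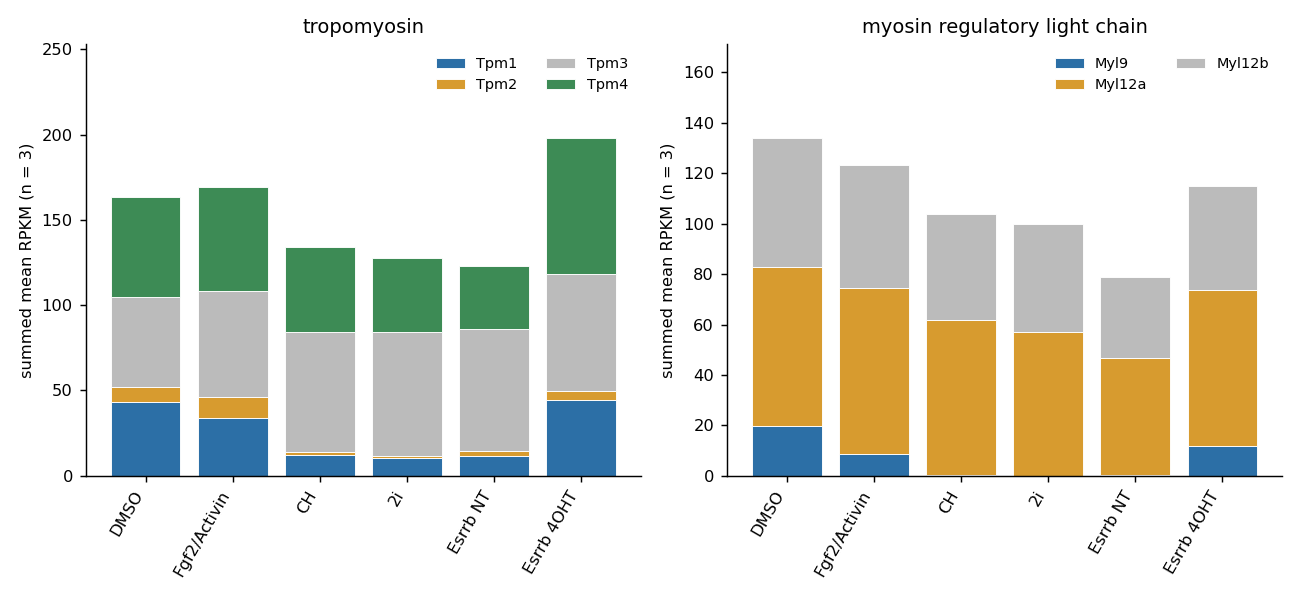
Summed mean RPKM (n = 3 per group) of the tropomyosins and the non-sarcomeric myosin regulatory light chains in the 6 groups, stacked by gene. The Tpm1 block is 43.4 RPKM in DMSO, 12.3 in CH and 44.7 in Esrrb null cells, and the Myl9 block all but vanishes in CH, 2i and Esrrb floxed cells. The DMSO mean of Tpm1 is raised by replicate 1 at 83.6 RPKM, with the lowest DMSO sample at 22.5.

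Beyond the 10 genes, 100 other genes of the same structures were examined in 5 lists, and of these 94 passed the filter in the E14 cultures and 91 in the Esrrb fl/fl cells. In CH against DMSO 5 were called higher and 11 lower by edgeR's quasi-likelihood test, with a median log2 fold change of -0.24 over those tested. The lists' shares were near those of all genes tested, of which 7.51% were called higher and 10.2% lower. With the replicate number as a block 18 were called lower, and without replicate 1 of all conditions 20 were. The shares of all genes above belong to the fit of all samples without a block. This rise is therefore not read as particular to the lists. The block added Acta1, Actc1, Cass4, Cnn2, Lpp, Parva, Rhoc and Tes and lost Srf. In 2i against Fgf2/Activin 8 were called higher and 16 lower (9.13% and 14.4% of all genes), and in 2i against CH 1 higher and 5 lower. In Fgf2/Activin against DMSO none was called by edgeR or DESeq2. In edgeR 16 of the 94 had an unadjusted p under 0.05, near the share of all genes (2770 of 16413). Between Esrrb null and floxed cells 15 were called higher and 2 lower, with a median of 0.28, where 12.8% of all genes were called higher and 3.87% lower.

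In the actin and myosin list, 1 of 23 genes was called higher and 2 lower in CH against DMSO. Cnn1, which encodes the smooth muscle calponin, had 12.7 ± 11.3 CPM in DMSO and fell to 0.308 ± 0.0319 CPM in CH (SD, n = 3 each), with a log2 fold change of -5.36 (SE 0.73, adjusted p = 0.000164, edgeR quasi-likelihood fit, Benjamini-Hochberg). Its DMSO samples had 25.8, 5.93 and 6.44 CPM. Myh10, the heavy chain of non-muscle myosin IIB, fell by 1.53 on the log2 scale, from 228 ± 35.1 to 79.5 ± 12.6 CPM. Tagln3, a transgelin known from neurons, rose by 2.11, from 0.817 ± 0.195 to 3.59 ± 0.118 CPM (SD, n = 3 each). In Esrrb null against floxed cells 7 of 22 genes were called higher and 1 lower. Rhob, a small GTPase that signals to the actin cytoskeleton, rose from 6.22 ± 1.13 to 68.8 ± 17.1 CPM, and the calponin Cnn2 from 17.0 ± 1.97 to 126 ± 19.4 CPM (SD, n = 3 each). Their log2 fold changes were 3.45 and 2.87 (adjusted p = 5.19e-06 and 1.76e-06, edgeR). Tagln was called higher as well, from 2, 1 and 1 counts to 61, 38 and 27, but 67.9% of its exon length overlaps genes on the opposite strand. Tagln3 fell by 2.24. Myh10 (2.04), Cald1 (2.09), Cnn1 (2.11) and Rhoc (1.13) were the other genes called higher, and Rhoc was not called without replicate 1 of both groups.

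Of 24 crosslinkers and filament regulators, 1 was called higher and 2 lower in CH against DMSO. Lima1, which crosslinks and stabilises filaments, rose from 57.2 ± 18.0 to 241 ± 78.7 CPM (log2 fold change 2.06, adjusted p = 0.000376, edgeR). Pls3, a bundling plastin, fell by 1.30 and the muscle α-actinin Actn2 by 1.45 on the log2 scale (adjusted p = 1.84e-05 and 0.00397, edgeR). In Esrrb null against floxed cells none was called higher by edgeR, with 18 of 24 at an unadjusted p under 0.05 in either direction. Over all genes 9376 of 14893 had such a p in edgeR. Enah, which elongates actin filaments, was the 1 gene called in this list by edgeR, and it fell from 459 ± 41.9 to 202 ± 7.81 CPM (log2 fold change -1.20, adjusted p = 5.4e-06, edgeR).

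Of 33 focal adhesion genes, 2 were called higher and 5 lower in CH against DMSO. Fermt1, a kindlin that activates integrins, fell from 8.55 ± 0.466 to 0.687 ± 0.241 CPM, and Efs, a relative of Bcar1, from 68.6 ± 12.5 to 9.09 ± 0.942 CPM (SD, n = 3 each). Their log2 fold changes were -3.63 and -2.93 (adjusted p = 2.76e-06 and 8.41e-08, edgeR). Pdlim7, a PDZ-LIM adaptor, fell by 2.60, whereas Nedd9, a further relative of Bcar1, rose by 3.19 from 0.311 ± 0.0850 to 2.87 ± 1.07 CPM. Within the Cas family, Bcar1 and Efs were thus lower in CH and Nedd9 was higher. In Esrrb null against floxed cells 7 of 33 were called higher and none lower. Parva, an adaptor of integrin-linked kinase, rose from 1.39 ± 0.139 to 10.9 ± 0.839 CPM, Lpp, a zyxin relative, from 7.36 ± 1.37 to 56.6 ± 3.89 CPM, and Fermt1 from 0.541 ± 0.207 to 3.06 ± 0.555 CPM (SD, n = 3 each). Csrp1, an α-actinin-binding LIM protein, rose by 1.62 (adjusted p = 5.3e-05, edgeR), and Zyx (1.60), Pdlim7 (1.11) and Vcl (1.08) completed the list. Pdlim7 was not called without replicate 1 of both groups.

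In the calpain system, none of the 8 genes tested was called in CH against DMSO and none of 7 in Esrrb null against floxed cells, by edgeR or DESeq2. At an unadjusted p under 0.05 in edgeR there were 1 and 3, where over all genes 8289 of 16413 and 9376 of 14893 had such a p. At the thresholds, 7.51% of all genes were called higher and 10.2% lower in CH against DMSO. For Esrrb null against floxed cells these shares were 12.8% and 3.87%, so nothing is read from the counts. The small subunit Capns1 had 122 ± 16.0 CPM in DMSO and 135 ± 12.3 CPM in CH (SD, n = 3 each). The inhibitor Cast had 23.7 ± 5.75 and 34.7 ± 5.38 CPM, a log2 fold change of 0.53 (adjusted p = 0.0225, edgeR). Cast also had 53.6 to 64.2 CPM in Esrrb null and 40.2 to 42.4 CPM in floxed samples. Capn1 was called higher in 2i than in Fgf2/Activin, at 127 ± 11.2 against 38.5 ± 2.98 CPM (log2 fold change 1.72, adjusted p = 8.95e-08, edgeR).

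Of the 6 genes of the Srf axis, Srf itself fell in CH from 141 ± 51.5 to 70.4 ± 9.90 CPM, a log2 fold change of -1.02 (adjusted p = 0.00352, edgeR) that was not called with the replicate block or without replicate 1. The cofactor Mrtfa had -0.56 (adjusted p = 0.00646) and Mrtfb -0.18 (adjusted p = 0.19), under the fold threshold. Myocd, the muscle cofactor, was called lower, with 24, 12 and 16 counts in DMSO and 1, 0 and 0 in CH. Fhl1, a LIM protein, rose from 21.9 ± 5.30 to 132 ± 26.5 CPM, a log2 fold change of 2.57. In Esrrb null against floxed cells, 1 of 5 genes was called, Fhl2, a LIM cofactor, with 2.21 ± 0.204 against 0.693 ± 0.349 CPM (SD, n = 3 each) and a log2 fold change of 1.64. Srf (0.49), Mrtfa (0.46) and Mrtfb (0.56) had adjusted p-values of 8.54e-05, 0.00068 and 0.000116 by edgeR but did not reach the fold threshold.

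**Figure D5:**
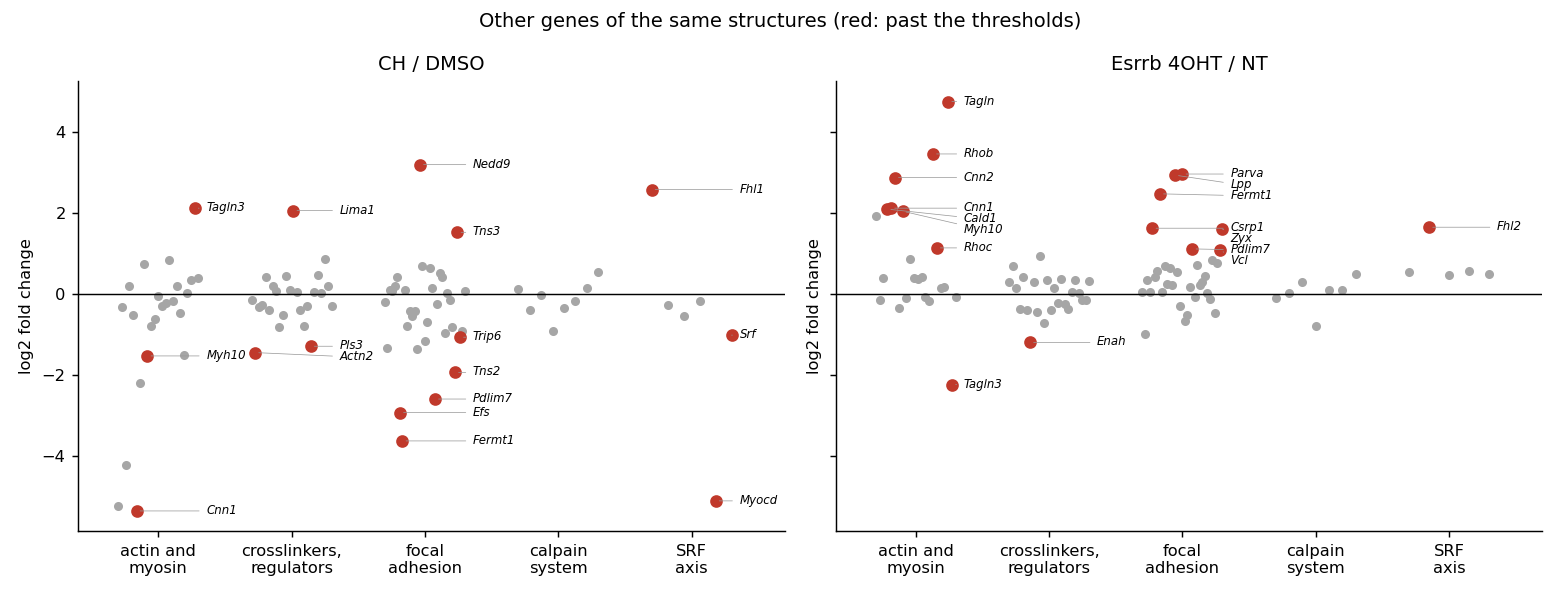
Log2 fold changes of the other genes of the 5 lists in CH against DMSO and in Esrrb null against floxed cells, 1 point per gene tested, with genes past the thresholds in red and named. Of the red points, 11 of 16 lie below 0 in CH against DMSO and 15 of 17 above 0 in Esrrb null against floxed cells, where over all genes 1674 were called lower and 1233 higher in the former and 1909 higher and 576 lower in the latter. The grey points near -5.25 and -4.23 in the first panel are Acta1 and Actc1.

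The genes whose pattern was most like that of Myl9 were ranked by Pearson's r of log2 CPM over the 12 E14 samples among the 9134 genes that averaged 10 CPM or more. They were Abracl (r = 0.989), Arhgap28 (0.988), Stk17b (0.987), Camk2g (0.987) and Spry1 (0.982). Tpm1, at rank 19 (0.973), was the nearest of those of the 10 genes that were ranked. Actn3 averaged under 10 CPM and was not ranked. The points share libraries and fall into the 2 pairs of conditions, DMSO with Fgf2/Activin and CH with 2i, so r describes these samples only. The changes of these genes were much smaller than that of Myl9. Abracl had 30.0, 16.8 and 20.5 CPM in DMSO and 13.8, 9.16 and 9.33 CPM in CH. In the Esrrb fl/fl cells, whose samples r did not use, Arhgap28 had 37.9, 43.9 and 47.4 CPM in null and 20.0, 26.3 and 23.0 CPM in floxed cells. Abracl, Stk17b and Spry1 were also higher in every null sample than in every floxed sample. Of all genes tested, 65.8% did not overlap there in either direction. Camk2g differed from Myl9 in these cells, with 27.4, 26.0 and 26.2 CPM in null and 29.0, 29.4 and 28.5 CPM in floxed cells.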

How the data were processed

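Poly(A) RNA of 18 samples was sequenced with a directional kit. The authors aligned reads to mm10 with TopHat2, counted them per Ensembl gene with HTSeq ignoring strand, and deposited whole-number counts, not normalised. Groups and replicate numbers came from the sample titles. Total counts were 25388139 to 37158661 per sample in E14 cells and 19915222 to 20140699 in Esrrb fl/fl cells, which limits genes with few counts such as Myl9 in 2i. The study states that its experiments were repeated independently, but the labels do not say whether each sequenced replicate was a separate culture, so p-values measure the spread between these samples.

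Symbols and exon lengths came from GENCODE M21 (49326 of 49671 identifiers matched). The 12 E14 samples and the 6 Esrrb fl/fl samples were fitted separately with edgeR 4.0.16 in R 4.3.3 (TMM, filterByExpr, quasi-likelihood test). CPM in the text were scaled by TMM over all 18 samples, with RPKM as CPM per kilobase of exon. Calls required a Benjamini-Hochberg adjusted p under 0.01 and a log2 fold change above 1 in size. The code was tested on simulated data.

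The 10 genes, the 5 lists and the motifs were chosen with earlier results of these data known. Other list genes were named by rule: in each list up to 4 called genes with the largest change in CH against DMSO and in Esrrb null against floxed cells, and the 5 genes most like Myl9. Genes named beyond it were chosen after their values were seen.

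Replicate numbers come from the titles. Deviations from group means correlated with a mean of 0.58 (lowest 0.37) between same-numbered E14 samples and -0.22 between others, over 10478 genes, and with 0.44 (lowest 0.38) and -0.18 in Esrrb fl/fl cells. Each group was centred on its own mean, so positive values between same numbers make those between others negative. The negative values are therefore no separate evidence. The numbers were taken to pair the samples because of the positive values. Transcripts were compared with blastn 2.17.0 (at least 75 bases at 95% identity). Alternatives were DESeq2 1.42.0 and its size factors, no filter, at least 10 counts in every sample, the replicate block, only the samples compared, and leaving out replicates. The values of 1 list gene are not reported here.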

Additional observations from a re-analysis of the deposited data

How the results depend on the processing

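Over the 5 comparisons, 634 log2 fold changes of the 10 genes were computed under the alternatives. None of a called gene changed sign. With samples left out, Myl9 ranged from -6.72 to -3.00 in CH against DMSO, from -8.17 to -5.03 in 2i against Fgf2/Activin and from -3.88 to -1.14 in 2i against CH. Tpm1 ranged from -2.16 to -0.94 in CH against DMSO, the latter without DMSO replicate 1, and from -0.93 to 0.54 in Fgf2/Activin against DMSO. The uncalled value of Myl9 in Fgf2/Activin against DMSO did change sign and ran from -2.81 to 1.29 with samples left out, the latter without DMSO replicate 1. So did uncalled values of Tpm4 in CH against DMSO (-0.51 to 0.04) and of Tpm1 and Tpm4 in 2i against CH. Tpm1, Tpm4, Actn3 and Tagln2 also changed sign in Fgf2/Activin against DMSO. Capn2 was called in that comparison without replicate 1 of all conditions (-1.09). DESeq2 gave Myl9 no adjusted p-value in the E14 comparisons. The call of Tpm2 in 2i against CH was lost in a fit of only the 6 samples, Capn2 was called there by DESeq2 (-1.12), and Bcar1 was called in Esrrb null against floxed cells in 4 alternatives (up to 1.03).

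With the replicate block, genes called higher and lower numbered 138 and 534 in 2i against CH and 275 and 149 in Fgf2/Activin against DMSO, and 18 list genes were lower in CH than in DMSO. It also added 6 list genes in 2i against Fgf2/Activin, 1 in 2i against CH and 1 in Esrrb null against floxed cells, and changed no other call of the 10 genes than that of Tpm1. With at least 10 counts in every sample, fewer genes were tested, and 800 were called higher and 955 lower in CH against DMSO, 1333 lower in 2i against Fgf2/Activin and 182 lower in 2i against CH. List genes called lower then numbered 3 in 2i against CH and 1 in Esrrb null against floxed cells. DESeq2's test called 107 and 490 genes in 2i against CH and 248 and 126 in Fgf2/Activin against DMSO. Fits of only the 6 samples called 28 and 72, with 2 list genes lower, and 62 and 25. The cause was not tested.

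With replicates left out, genes called higher ranged from 17 to 214 and lower from 124 to 554 in 2i against CH, where 52 and 274 were called with all samples. In Fgf2/Activin against DMSO they ranged from 84 to 318 and from 28 to 181, against 148 and 57. List genes called lower ranged from 10 to 20 in CH against DMSO and from 3 to 6 in 2i against CH, and those called higher in 2i against CH from 0 to 1. Where 1 sample of a group was left out, the spread was shared over all samples of the fit. Few counts limited Myl9 in CH and 2i.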
